A study of Mus musculus with 9 samples.

Results

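Type I interferon response genes are switched on when a cell detects viral or misplaced nucleic acid. Cytosolic sensors of RNA (RIG-I, encoded by Ddx58, and MDA5, encoded by Ifih1) pass a signal to interferon regulatory factors, and the type I interferons that are then secreted act through their receptor on the same and neighbouring cells. Transcription factors activated by the receptor bind an interferon-stimulated response element at the promoters of response genes, among them the sensors themselves and Irf7. RNA of retrotransposons can engage these sensors, and their DNA copies can engage the DNA sensor cGAS, so these genes can be read as a possible response to transposon nucleic acid in testes that carry a mutated PIWIL4, the PIWI protein (also known as MIWI2) that takes part in transposon silencing in male germ cells.

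The 9 genes Ddx58, Ifih1, Irf7, Ifit1, Ifit2, Ifit3, Isg15, Rsad2 and Bst2 were taken by symbol from a table of 22337 genes, and all of them were found in it. The table comes from RNA sequencing of whole testes of 3-week-old mice, 3 of each of 3 genotypes: wild-type (WT-WT), Piwil4 WT/R264W, in which 1 allele carries the knock-in that replaces an arginine of PIWIL4 by tryptophan (WT-KI, here heterozygous), and Piwil4 R264W/R264W, in which both alleles carry it (KI-KI, here homozygous). The knock-in was made with CRISPR-Cas9 in C57BL/6 zygotes and is present in every cell of the mouse, so a testis holds mutated germ cells and mutated somatic cells. No agent was given to any group. The labels describe a mixed tissue, and the libraries held the transcripts of Sertoli, Leydig, peritubular, endothelial and germ cells; in such bulk samples fewer cells of a type and less RNA per cell cannot be told apart.

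The deposited estimated counts came to 18 to 24.3 M for each testis, at which 3 counts, the limit that a count of 0 allows, make 0.122 to 0.171 CPM (counts scaled to a common library size). Counting error alone is covered by that limit. Piwil4 itself had 18 to 46 counts per testis, and since such counts do not separate the alleles, the labels are the only source for the genotypes. The testes differed widely in how far the first wave of spermatogenesis had come. A stage score, computed as the average of log2 CPM over 21 genes of round spermatids, was 6.23, 2.80 and 1.62 in wild-type testes, 5.26, 3.79 and 1.03 in heterozygous testes and 2.62, 3.97 and 6.03 in the homozygous testes. Each genotype thus held early and late testes, and the score is used as a second axis beside genotype.

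The promoters were examined for the response element because it is the sequence through which interferon acts on such genes. The element was searched as GAAANNGAAA on both strands (TTTCNNTTTC when it lies on the strand opposite to the gene), with overlapping matches counted, in RefSeq promoter windows of GRCm38.p6 that run from 250 bases before to 50 bases after a gene's start. It was found in 7 of the 9 genes, against 3.44% of 32851 windows and 3.99% of 27025 genes. The exceptions were Irf7 and Ifit2, whose windows hold no match to these letters. The stretches around the 5 promoters with a match before the start are given 5′ to 3′ on the strand of the gene, with the matched letters in capitals, in the order Ifit1 (chr19:34640760-34640838, plus strand), Ifit3 (chr19:34583348-34583441, plus strand), Isg15 (chr4:156200850-156200921, minus strand), Bst2 (chr8:71537562-71537627, minus strand) and Rsad2 (chr12:26456538-26456597, minus strand).
Ifit1: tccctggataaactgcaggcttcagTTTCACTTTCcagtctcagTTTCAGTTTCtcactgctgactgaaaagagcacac
Ifit3: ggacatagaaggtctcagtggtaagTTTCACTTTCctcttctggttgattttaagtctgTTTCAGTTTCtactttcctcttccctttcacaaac
Isg15: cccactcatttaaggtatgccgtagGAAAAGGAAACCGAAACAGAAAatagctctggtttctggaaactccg
Bst2: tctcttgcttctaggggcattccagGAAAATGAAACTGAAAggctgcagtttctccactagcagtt
Rsad2: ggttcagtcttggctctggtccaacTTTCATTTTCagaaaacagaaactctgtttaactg
Ifit1 and Ifit3 each carry 2 separate copies on the strand opposite to the gene, Isg15 carries 3 overlapping copies, Bst2 carries 2 overlapping copies, and Rsad2 carries 1. In Ddx58 and Ifih1 the match lies within the first 50 bases after the start. Among the other genes of the pathway with a window, the element was present in 16 of 38 further stimulated genes, 3 of 10 other sensors and adaptors, 2 of 12 genes of the receptor and its signalling and 0 of 6 genes that dispose of self nucleic acid. A match is a description of the sequence and does not show that a factor binds there.

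All 9 genes were transcribed in the 3-week-old testis, most of them at a low level. Levels of different genes are compared per length, in FPKM (fragments scaled to gene length and library size, as deposited). Bst2, which encodes tetherin, a membrane protein that holds budding virus particles at the cell surface, was the highest, with a mean of 8.46 FPKM over the 9 testes (range 7.20 to 10.3), above 65.7% of all genes in the table. Ddx58 followed at 1.49 (1.28 to 1.70), Ifih1 at 1.15 (0.73 to 1.93), Irf7 at 0.93 (0.75 to 1.21), Ifit3 at 0.866 (0.35 to 1.46), Isg15 at 0.86 (0.30 to 1.37), Ifit2 at 0.443 (0.23 to 0.76) and Ifit1 at 0.283 FPKM (0.14 to 0.46). Rsad2, which encodes viperin, an antiviral enzyme of the endoplasmic reticulum, was the lowest at 0.126 FPKM (0.07 to 0.25), above 27.5% of all genes. Bst2 exceeded Ddx58, and Ifit1 exceeded Rsad2, in 9 of 9 testes. The order was less firm between them: Ddx58 lay above Ifih1 in 7 of 9 testes, Ifih1 above Irf7 in 4, Irf7 above Ifit3 in 5, Ifit3 above Isg15 in 6, Isg15 above Ifit2 in 8 and Ifit2 above Ifit1 in 7. The middle of the order, from Ifih1 to Isg15, is therefore not resolved beyond the spread between testes.

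**Figure D1:**
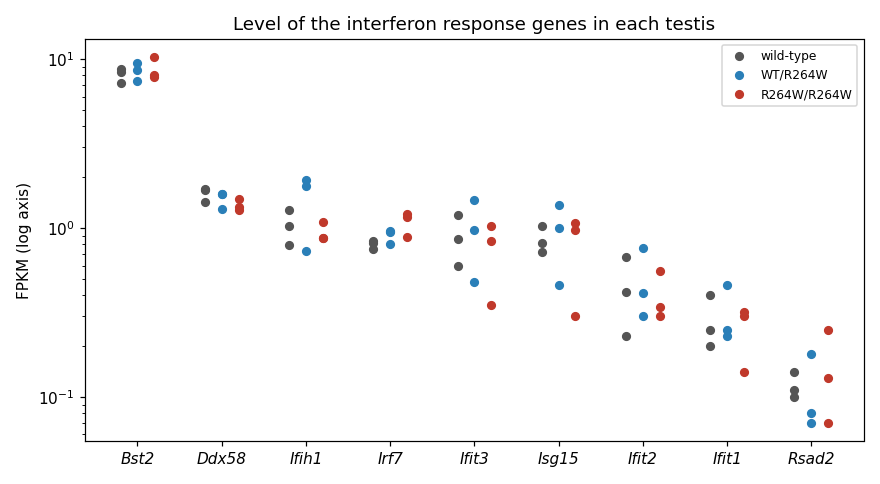
Level of each of the 9 genes in each testis, in FPKM on a log axis, with genes ordered by their mean and genotypes in separate colours (3 testes each). Bst2 stands above the rest in every testis at 7.20 to 10.3 FPKM, Rsad2 lies at 0.07 to 0.25 FPKM, and the 3 genotypes overlap in most genes.

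The number of counts set the precision. None of the 81 values was a count of 0, and 8 of them were between 1 and 9 counts. The coefficient of variation of CPM over the 9 testes was 9.60% for Ddx58, 10.2% for Bst2 and 15.3% for Irf7, where counting error alone gives 9.04%, 8.38% and 16.2%. These genes therefore varied over the testes by about as much as counting would make them vary. Ifih1 varied by 34.6% against a counting error of 9.39%, Ifit2 by 38% against 16.7% and Ifit3 by 38.2% against 17.7%, so that the spread of these genes between mice was larger than counting error. Ifit1 varied by 35.9% against 25.2%, Isg15 by 36.0% against 27.7% and Rsad2 by 44.0% against 31.3%.

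The first comparison asks whether testes with both Piwil4 alleles mutated showed an interferon response. None of the 9 genes was called between homozygous and wild-type testes. The quasi-likelihood test of edgeR was used, with Benjamini-Hochberg adjustment over 15543 genes. Under an adjusted p of 0.05 were 0 of the 9, and also 0 of all 15543 genes. The lack of a call is thus shared with every other gene tested. At an unadjusted p under 0.05 there were 0 of the 9, against 1.26% of all genes. DESeq2 also called 0 of those of the 9 that it tested, here and in the other genotype comparisons. The limma fits kept only genes with a mean of at least 0.5 FPKM. They therefore did not test Ifit1, Ifit2 and Rsad2, and they called 0 of the others. The median log2 fold change of the 9 genes was -0.13 (all genes -0.01), with 3 genes above 0 and 6 below. The signs of Ifit1, Ifit2, Ifit3, Isg15 and Bst2 turned without certain single testes. The 95% interval of every gene's log2 fold change included 0, and for 4 genes (Irf7, Ddx58, Ifih1 and Bst2) it lay wholly within 1 of 0, that is, within 2-fold. For the other 5 genes a 2-fold change in at least one direction was not excluded by the interval at this depth and number of mice.

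Neither RNA sensor was called, and both had log2 fold changes below 0. Ddx58 (ENSMUSG00000040296; GRCm38 chromosome 4, 40203773 to 40239828, minus strand, 18 exons) had 6.08, 6.66 and 6.52 CPM in the wild-type testes, 6.28, 5.14 and 6.10 CPM in the heterozygous testes and 5.77, 5.06 and 5.58 CPM in the homozygous testes. In CPM, all 3 homozygous testes lay below all 3 wild-type testes, while the heterozygous testes overlapped both. In FPKM the groups overlapped, since homozygous replicate 1 (1.48) lay above wild-type replicate 1 (1.43). The log2 fold change, homozygous over wild-type, was -0.23 (standard error 0.14, 95% interval -0.58 to 0.11, adjusted p = 1.0 by the quasi-likelihood test of edgeR). Ifih1 (ENSMUSG00000026896; GRCm38 chromosome 2, 62595798 to 62646255, minus strand, 16 exons) had 3.94, 5.14 and 6.23 CPM in the wild-type testes, 9.24, 3.69 and 7.62 CPM in the heterozygous testes and 4.47, 4.53 and 4.21 CPM in the homozygous testes. Its homozygous testes were close together and lay inside the wild-type range, and from wild-type to homozygous testes its log2 fold change was -0.21 (95% interval -0.71 to 0.28). The widest spread of Ifih1 was among the heterozygous testes, which held both the lowest and the highest value of all 9.

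Irf7 (ENSMUSG00000025498; GRCm38 chromosome 7, 141262706 to 141266481, minus strand, 10 exons), the transcription factor that amplifies interferon production and is itself induced by interferon, was the gene that stood highest in the homozygous testes relative to its error. It had 38, 34 and 30 counts (1.76, 1.66 and 1.45 CPM) in the wild-type testes, 42, 29 and 35 counts (1.88, 1.62 and 1.84 CPM) in the heterozygous testes and 43, 60 and 34 counts (1.92, 2.45 and 1.94 CPM) in the homozygous testes. In CPM, every homozygous testis lay above every testis of the other genotypes, and the highest value was that of 1 testis, replicate 2. The nearest values were 1.92 CPM in homozygous replicate 1 and 1.88 CPM in heterozygous replicate 1. In FPKM, homozygous replicate 3 (0.89) lay below heterozygous replicates 1 and 3 (0.95 and 0.96). It was still above all wild-type testes (0.75 to 0.84). The log2 fold change, homozygous over wild-type, was 0.37 (standard error 0.22, 95% interval -0.16 to 0.90, unadjusted p = 0.138 and adjusted p = 1.0 by the quasi-likelihood test of edgeR). By exact permutation (two-sided) p was 0.1, the smallest value possible with 3 testes against 3, so single genes cannot pass 0.05 by that test here. In CPM, Irf7 and Ddx58 were the 2 of 9 genes whose groups did not overlap in this comparison, in opposite directions. The groups did not overlap in 5.58% of all genes tested. Irf7 shares 45 of its 3776 bases with Phrf1 on the opposite strand, and the strand setting of the counting is not given in the sources used here. Phrf1 is transcribed at a mean of 124 CPM and had a log2 fold change of -0.04 in this comparison.

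The IFIT genes, whose proteins bind foreign RNA and hold back its translation, varied more within a genotype than between genotypes. Ifit1 (ENSMUSG00000034459; GRCm38 chromosome 19, 34640871 to 34650009, plus strand, 2 exons) had 25, 14 and 11 counts (1.16, 0.685 and 0.531 CPM) in the wild-type testes, 14, 12 and 23 counts (0.628, 0.670 and 1.21 CPM) in the heterozygous testes and 19, 9 and 15 counts (0.850, 0.367 and 0.854 CPM) in the homozygous testes. The groups overlapped, with 1 high testis among the wild-type and 1 among the heterozygous testes. Ifit2 (ENSMUSG00000045932; chromosome 19, 34550694 to 34576419, plus strand, 3 exons) had 0.974, 1.62 and 2.56 CPM in the wild-type testes, 1.61, 1.17 and 2.84 CPM in the heterozygous testes and 1.3, 2.16 and 1.25 CPM in the homozygous testes. Ifit3 (ENSMUSG00000074896; chromosome 19, 34583531 to 34588731, plus strand, 2 exons) had 1.16, 2.11 and 1.5 CPM, then 0.852, 1.73 and 2.52 CPM, and 1.48, 1.84 and 0.683 CPM in the same order of genotypes. For both genes the lowest and the highest wild-type testes differed by more than the genotype means, which for Ifit2 were 1.72 ± 0.797, 1.88 ± 0.863 and 1.57 ± 0.514 CPM (SD, n = 3 each) and for Ifit3 1.59 ± 0.479, 1.70 ± 0.836 and 1.33 ± 0.590 CPM (SD, n = 3 each). The log2 fold changes of homozygous against wild-type testes were -0.21 for Ifit1 (95% interval -1.36 to 0.93), -0.12 for Ifit2 (-1.13 to 0.88) and -0.24 for Ifit3 (-1.25 to 0.76). The value of Ifit3 is uncertain because reads can be shared with its near copy Ifit3b, and both genes had counts that were not whole.

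The other effectors were likewise without a call. Isg15 (ENSMUSG00000035692; GRCm38 chromosome 4, 156199424 to 156200818, minus strand, 2 exons), a ubiquitin-like protein that is attached to other proteins during the response, had 12, 15 and 12 counts (0.557, 0.734 and 0.579 CPM) in the wild-type testes, 16, 6 and 18 counts (0.718, 0.335 and 0.946 CPM) in the heterozygous testes and 17, 17 and 4 counts (0.761, 0.694 and 0.228 CPM) in the homozygous testes. Its lowest value came from homozygous replicate 3, and the groups overlapped. Rsad2 (ENSMUSG00000020641; chromosome 12, 26442746 to 26456452, minus strand, 6 exons) had 9, 11 and 9 counts (0.418, 0.539 and 0.434 CPM), then 7, 5 and 13 counts (0.314, 0.279 and 0.683 CPM), and 21, 12 and 5 counts (0.939, 0.490 and 0.285 CPM) in the same order. Here the homozygous testes held the highest value, and 1 of them also lay below all wild-type testes. Bst2 (ENSMUSG00000046718; chromosome 8, 71534255 to 71537456, minus strand, 5 exons) had 6.26, 6.76 and 6.95 CPM in the wild-type testes, 5.97, 7.04 and 7.41 CPM in the heterozygous testes and 6.26, 8.29 and 6.89 CPM in the homozygous testes. It was among the most precisely measured genes, with a log2 fold change against wild-type testes of 0.10 (95% interval -0.28 to 0.49), beside -0.13 for Isg15 (-1.27 to 1.02) and 0.31 for Rsad2 (-0.87 to 1.5).

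**Figure D2:**
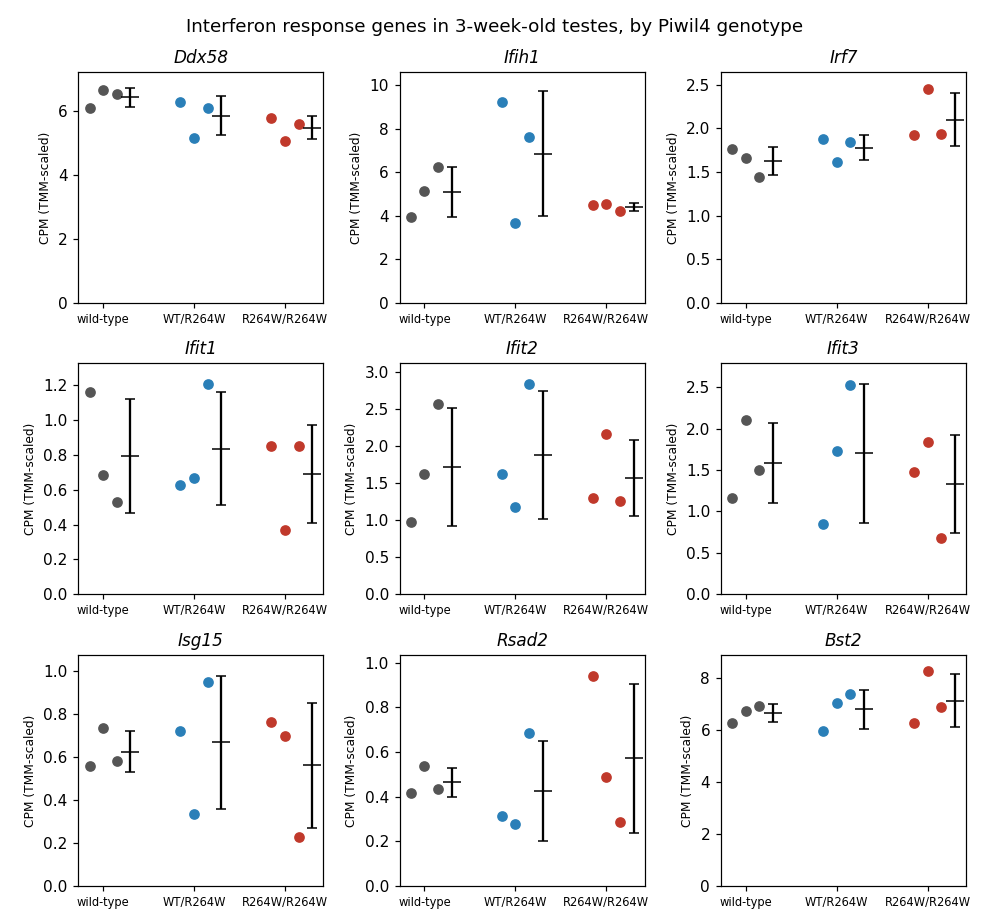
Level of each gene in the 9 testes, in TMM-scaled CPM on axes that start at 0, by genotype (points, 3 testes each), with the mean and SD of each genotype beside its points. Only Irf7 (higher) and Ddx58 (lower) have homozygous testes apart from all wild-type testes.

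Homozygous and heterozygous testes differ in the number of mutated alleles. Between them, again 0 of the 9 genes were called by edgeR's test at an adjusted p under 0.05, as were 0 of all 15463 genes. Of the 9, 0 had an unadjusted p under 0.05, against 2.22% of 15463 genes. Rsad2 did not pass the filter on low counts here, and its value of 0.44 (95% interval -0.95 to 1.82) is from the fit without a filter. Of the 8 genes that passed, 2 had a log2 fold change above 0 and 6 below, with a median of -0.24 (all genes 0.01). In CPM, Irf7 was the 1 gene whose groups did not overlap, where 7.06% of all genes had no overlap. Its log2 fold change was 0.24 (95% interval -0.27 to 0.75), and in FPKM its groups overlapped. Ifih1 had the smallest unadjusted p, 0.0943 in edgeR's quasi-likelihood test (adjusted p = 0.948), with a log2 fold change of -0.64 (standard error 0.33, 95% interval -1.41 to 0.14). Its value rested on 2 high heterozygous testes, at 9.24 and 7.62 CPM, while the other was at 3.69 CPM, below the 4.21 to 4.53 CPM of the homozygous testes. Without that testis, replicate 2, the log2 fold change was -0.93 with an unadjusted p under 0.05. The remaining genes had log2 fold changes of -0.28 (Ifit1), -0.25 (Ifit2), -0.33 (Ifit3), -0.23 (Isg15), -0.09 (Ddx58) and 0.07 (Bst2).

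Between heterozygous and wild-type testes, 0 of the 9 genes were called by edgeR's test at an adjusted p under 0.05, as were 0 of all 15413 genes. Of the 9, 0 had an unadjusted p under 0.05, against 1.11% of 15413 genes. The groups of 0 genes were without overlap, against 5.36% of all genes. Of the 8 genes that passed the filter, 7 had a log2 fold change above 0 and 1 below, with a median of 0.09 (all genes -0.02). Ifih1 had the largest of these, 0.42 (standard error 0.36, 95% interval -0.44 to 1.28), and without heterozygous replicate 2 it was 0.73 with an unadjusted p under 0.05. The others lay between -0.14 (Ddx58) and 0.13 (Irf7), and Rsad2, below the filter, was at -0.12 (95% interval -1.33 to 1.08). heterozygous replicate 3 decided the sign of the medians: without it the median was -0.21 against wild-type testes, and that of homozygous against heterozygous testes was 0.10. The 3 comparisons share libraries in pairs, so their values are not independent of each other.

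**Figure D3:**
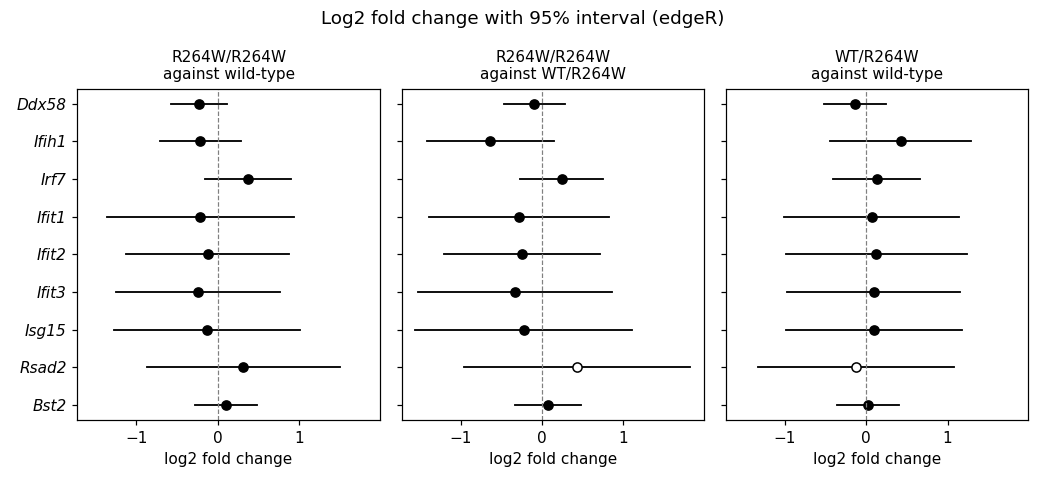
Log2 fold change of each gene in the 3 genotype comparisons (points) with its 95% interval (lines), from edgeR; open circles mark Rsad2 where it was below the filter on low counts. Every line crosses 0, and the shortest lines are those of Ddx58 and Bst2.

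How far the 9 genes varied together was described over the 9 testes. Over their 36 pairs, Pearson's r of log2 CPM had a median of 0.15, with 26 pairs above 0 and 10 pairs over 0.5. The highest was that of Isg15 and Rsad2, at 0.73. These are descriptions over 9 testes that share a stage gradient, and counting error lowers them for the genes with few reads. The mean z score of the 9 genes was highest in heterozygous replicate 3 (0.99), where Ifit1, Ifit2, Ifit3 and Isg15 each had their highest value of all 9 testes. That testis also had the lowest stage score, 1.03. The lowest mean z scores were those of heterozygous replicate 2 (-0.67) and homozygous replicate 3 (-0.65). Outside the 9 genes, 15762 candidates were ranked by how closely their log2 CPM over the 9 testes followed this mean. The highest were Ccdc47 (r = 0.976), Srek1ip1 (0.976), B4galt6 (0.973), Wdr44 (0.968) and Coch (0.965). None of them belongs to the interferon lists used here, to which only 75 of the candidates belong. The highest of so many correlations over 9 testes can be this high by chance, and nothing is concluded from them.

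The 9 genes were next set against the stage of the first wave. None passed the adjusted threshold, and Ifit3 and Ifit2, which encode IFIT proteins, came nearest to it, both with lower levels in more advanced testes. The slope was fitted over all 9 testes with genotype in the model, and it is given as log2 change per SD of the stage score. Ifit3 had a slope of -0.44 (standard error 0.16, 95% interval -0.79 to -0.10, unadjusted p = 0.0163, adjusted p = 0.0590 in edgeR's quasi-likelihood test) and Ifit2 one of -0.40 (standard error 0.15, 95% interval -0.72 to -0.08, unadjusted p = 0.0196, adjusted p = 0.0673). Of the 9 genes, 2 had a lower level with stage at an unadjusted p under 0.05, against 17.2% of 15771 genes. For 9 genes this is close to the share of all genes, so a fall with stage does not set them apart. At an adjusted p under 0.05, 0 were called lower or higher, against 8.26% and 17.4% of all genes. The median slope was -0.09 (all genes -0.02), with 7 slopes below 0. Rsad2 had a slope of -0.43 (adjusted p = 0.156) and Isg15 one of -0.28, both with intervals that included 0. The estimated slopes of Ifih1 (-0.09), Bst2 (-0.06), Ddx58 (-0.02), Ifit1 (0.05) and Irf7 (0.04) were small. For Bst2 the 95% interval ran from -0.21 to 0.10 and for Ddx58 from -0.17 to 0.13. The intervals of Ifih1 (-0.35 to 0.18), Irf7 (-0.21 to 0.28) and Ifit1 (-0.39 to 0.49) were wider, so larger slopes were not excluded for these genes.

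The values of Ifit3 and Ifit2 can be read along the score. In the testis with the lowest score, heterozygous replicate 3, Ifit3 had 2.52 and Ifit2 had 2.84 CPM, the highest of all 9 testes for both genes. In the 3 most advanced testes, wild-type replicate 1, homozygous replicate 3 and heterozygous replicate 1, Ifit3 had 1.16, 0.683 and 0.852 CPM, the 3 lowest values. Ifit2 had 0.974, 1.25 and 1.61 CPM in the same testes, and its value in heterozygous replicate 2, with a middle score, was also low at 1.17 CPM. The early homozygous replicate 1 had 1.3 CPM of Ifit2, below the late heterozygous replicate 1, and homozygous replicate 2, with a middle score, had 2.16 CPM, so that both lay off the trend. Whether these slopes passed the adjusted threshold depended on the fit. Over 18 alternatives the adjusted p of Ifit3 ran from 0.0288 to 0.273, and over 16 that of Ifit2 ran from 0.0230 to 0.287. Ifit3b, the near copy of Ifit3, had a slope of -0.33 with an interval from -0.92 to 0.25.

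**Figure D4:**
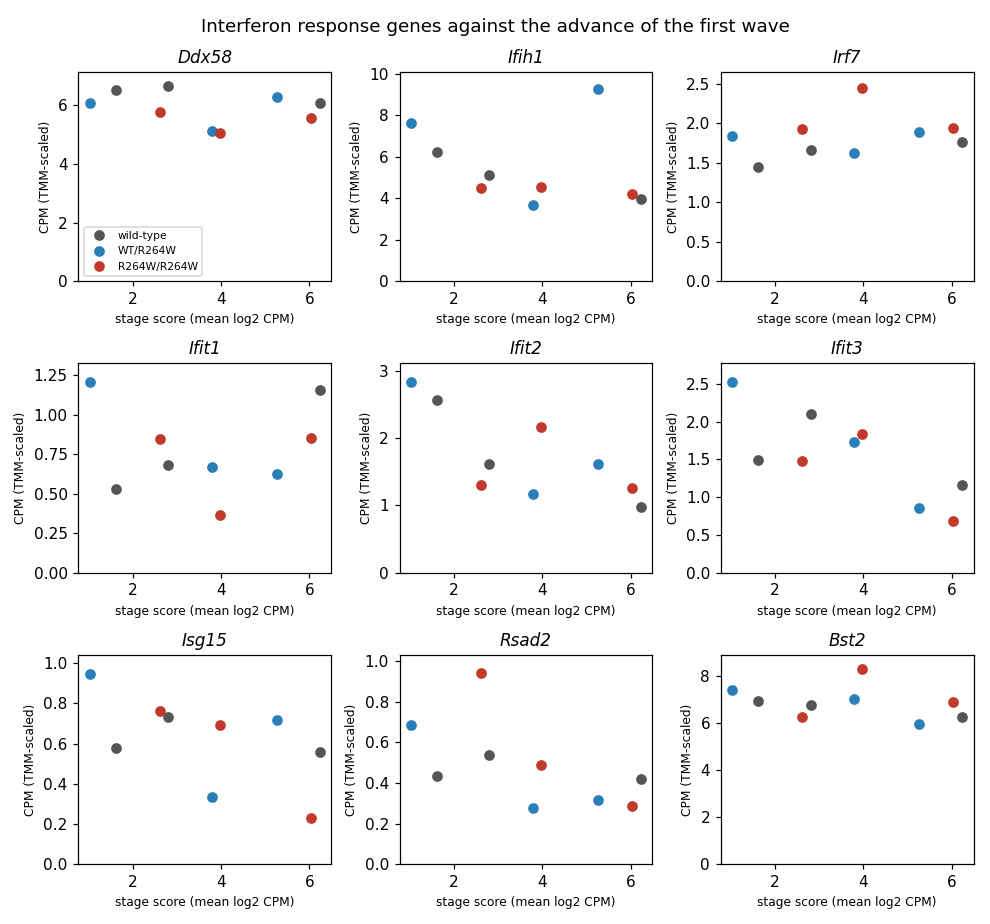
Level of each gene (TMM-scaled CPM) in each testis against the stage score (average log2 CPM of 21 genes of round spermatids), with genotypes in separate colours. Ifit2 and Ifit3 run from 2.84 and 2.52 CPM at the lowest score to 0.974 and 1.16 CPM at the highest, while Ddx58, Irf7 and Bst2 have slopes between -0.06 and 0.04.

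The other genes of the pathway were taken from lists, 104 genes in all. The type I interferon genes themselves were at or near 0: of 18 genes, 12 had a count of 0 in all 9 testes, Ifnb1 among them, and the other 6 had between 1 and 4.5 counts summed over all 9 testes. None was tested. A count of 0 at this depth allows up to 0.122 to 0.171 CPM per testis. Of the remaining lists, 72 genes passed the filter between homozygous and wild-type testes, 72 between homozygous and heterozygous testes and 73 between heterozygous and wild-type testes. Of these, 0 were called by edgeR's test at an adjusted p under 0.05 in any comparison, as were 0 of all genes tested. At an unadjusted p under 0.05, 1 was higher and 2 were lower in the first comparison, 1 was higher and 3 were lower in the next, and 1 was higher and 1 was lower in the last, beside 1.26%, 2.22% and 1.11% of all genes past that threshold.

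In homozygous against wild-type testes, these were Ifitm2, Myd88 and Adar, none of which passed the adjusted threshold. Ifitm2, an interferon-induced protein that restricts virus entry, had 4.64, 7.20 and 4.87 CPM in the wild-type and 7.56, 8.41 and 7.80 CPM in the homozygous testes, without overlap (log2 fold change 0.51, unadjusted p = 0.0475 in edgeR's test). Myd88, the adaptor of most Toll-like receptors, had 28.3, 26.1 and 28.8 CPM against 23.5, 23.5 and 22.4 CPM, also without overlap (log2 fold change -0.26, unadjusted p = 0.0313 in edgeR's test). Adar, which edits double-stranded RNA and so keeps it from the sensor MDA5, had 24.3, 29.4 and 32.7 CPM against 24.5, 22.6 and 18.9 CPM, with overlap (log2 fold change -0.39, unadjusted p = 0.0429 in edgeR's test). Each of these had an adjusted p of 1.0. The median log2 fold change was -0.04 for 13 genes of the receptor and its signalling, -0.09 for 12 other sensors and adaptors, 0.00 for 9 genes that dispose of self nucleic acid and -0.02 for 38 further stimulated genes, beside -0.01 for all genes.

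In the comparisons that use the heterozygous testes, Ifi47, Gbp2, Irgm1, Herc6 and Oasl1 were past the unadjusted threshold and none was past the adjusted one. Ifi47, Gbp2 and Irgm1 encode GTPases induced by interferons, above all by interferon gamma. Ifi47 had 0.371, 0.539 and 0.483 CPM in the wild-type testes, 0.987, 1.68 and 2.0 CPM in the heterozygous testes and 0.626, 0.776 and 1.02 CPM in the homozygous testes. Its log2 fold change was 1.72 for heterozygous against wild-type testes (unadjusted p = 0.00308, adjusted p = 1.0 in edgeR's test) and -0.94 for homozygous against heterozygous testes (unadjusted p = 0.0380, adjusted p = 0.948). Ifi47 lies within the model of Olfr56 on the same strand, so its reads may be shared. Gbp2 and Irgm1 were lower in homozygous than in heterozygous testes, with log2 fold changes of -0.87 and -0.48 (unadjusted p = 0.0197 and 0.0466, adjusted p = 0.948 for both in edgeR's quasi-likelihood test). Herc6, which attaches ISG15 to proteins in the mouse, was higher in homozygous than in heterozygous testes with 53.2, 53.4 and 52.7 CPM against 43.8, 47.5 and 42.9 CPM (log2 fold change 0.25, unadjusted p = 0.0171 in edgeR's test). Its wild-type values of 60.9, 46.2 and 47.6 CPM spanned both. Oasl1 was lower in heterozygous than in wild-type testes, with 8, 5 and 8 against 17, 15 and 11 counts (log2 fold change -0.95, unadjusted p = 0.0481 in edgeR's test). The signs differ among these genes, and every adjusted p was 0.948 or above.

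**Figure D5:**
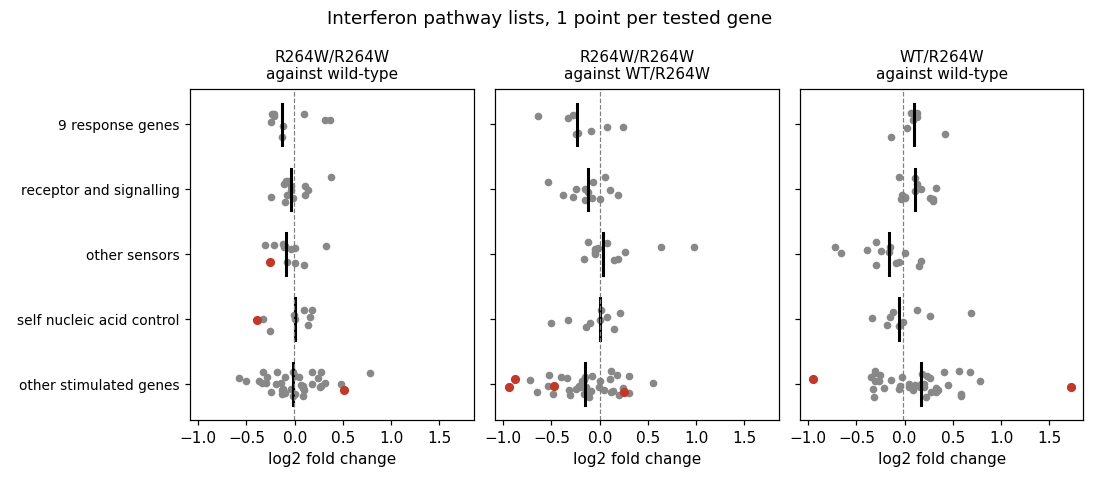
Log2 fold change of every tested gene of the interferon lists in the 3 genotype comparisons, 1 point a gene, with the list median (black bar) and the median of all genes (dashed line); red points have an unadjusted p under 0.05. The red points number 3, 4 and 2 from left to right, and the medians of the 9 response genes are -0.13, -0.24 and 0.09.

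Along the stage score, 12 of 75 tested pathway genes were called by edgeR's test at an adjusted p under 0.05, 4 higher and 8 lower, where 17.4% of all genes were called higher and 8.26% lower. The count depended on single testes: it was 3 without wild-type replicate 1, 4 without heterozygous replicate 3, 4 without homozygous replicate 3 and 5 without wild-type replicate 3, and it was 7 with the replicate number as a block, so most of the calls named here are lost in at least 1 of these fits. Isg20, which encodes an exonuclease of RNA, rose by 1.16 per SD of the score (standard error 0.10, adjusted p = 1.46e-06). It had 14.2 CPM in wild-type replicate 1 and 15.4 CPM in homozygous replicate 3, the most advanced testes, and 1.35 and 1.73 CPM in the least advanced, wild-type replicate 3 and heterozygous replicate 3. This is the direction opposite to that of Ifit2 and Ifit3. In the receptor and signalling list, Irf2, a factor that mostly competes with activating IRFs, rose (slope 0.32, adjusted p = 0.0114 in edgeR's test), while the genes that fell included Irf9 (-0.26, adjusted p = 0.0153), the kinase Tbk1 (-0.16, 0.0248) and the receptor chain Ifnar1 (-0.13, 0.0449). Irf5, at 0.12, was not called. Irf9 had 12.4 CPM in the least and 5.47 CPM in the most advanced testis.

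Among the 13 other sensors and adaptors tested for stage, Tlr3, an endosomal sensor of double-stranded RNA, fell (slope -0.29, adjusted p = 0.0465 in edgeR's test), and Dhx58, the third RIG-I-like receptor, had a slope of 0.12 (adjusted p = 0.0553). Ifi203, Myd88 and Sting1 were not called, with slopes of -0.11, -0.04 and 0.03. Of the 9 genes that dispose of self nucleic acid, Rnaseh2a, a subunit of the enzyme that removes RNA from RNA:DNA hybrids, and Skiv2l, a helicase of the cytoplasmic RNA exosome, rose (slopes 0.20 and 0.14, adjusted p = 0.00734 and 0.0338 in edgeR's test). Adar fell (slope -0.14, adjusted p = 0.0457 in edgeR's test), and Dnase2a (0.20) and Rnaseh2b (-0.17) were not called. Of 40 further stimulated genes, 1 rose (Isg20) and 1 fell (Parp12, slope -0.14, adjusted p = 0.0126 in edgeR's test), with slopes below 0 in 32 and a median of -0.11. Herc6 (0.08), Lgals3bp (0.10), Sp100 (-0.32) and Ifi27 (-0.12) were not called.

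Immune cells express many interferon response genes, so their markers are set beside these values. The summed level of 12 macrophage genes was 130 to 183 CPM in wild-type, 127 to 155 CPM in heterozygous and 148 to 178 CPM in homozygous testes. None of the 12 genes was at 0 throughout. The median stage slope of the single genes was 0.02. The sum was 183 and 178 CPM in the most advanced testes, wild-type replicate 1 and homozygous replicate 3. In wild-type replicate 3, among the least advanced, it was 130 CPM. The sum was lowest, at 127 CPM, in heterozygous replicate 3, the testis with the lowest stage score and the highest mean z score of the 9 genes. The 8 lymphocyte genes summed to 2.32 to 3.04, 1.90 to 3.15 and 1.76 to 2.01 CPM in the same order. For this sum the homozygous testes lay below the wild-type testes, at a level of few counts. Unlike the macrophage sum, the lymphocyte sum was highest in heterozygous replicate 3 (3.15 CPM). It was low in heterozygous replicate 2 (1.90 CPM) and lowest in homozygous replicate 3 (1.76 CPM), the testes with the lowest mean z scores. Of 6 neutrophil genes, S100a8, S100a9, Retnlg, Ngp and Ly6g were at 0 in all 9 testes. The 8 endothelial genes summed to 33.0 to 39.8, 30.9 to 40.7 and 32.2 to 42.6 CPM. The macrophage and endothelial ranges overlapped between all genotypes. Along the stage score the round spermatid genes that define it ran from 206 to 2326 CPM. All 21 of them were called higher, which was fixed in advance because they make up the score. Beside the lists that follow, 17.4% of all genes were called higher and 8.26% lower. Of 11 pachytene genes 5 were called higher and 2 lower, of 10 Sertoli genes 1 higher and 2 lower, of 7 spermatogonial genes 1 higher and 2 lower, of 12 macrophage genes 2 higher and 0 lower, of 7 Leydig genes 2 higher and 0 lower, and of 8 endothelial genes 1 higher and 0 lower. The part of a changing mix of cells in the slopes of Ifit2, Ifit3 and the other pathway genes was not tested.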

How the data were processed

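RNA of 9 whole testes was sequenced as 150 bp read pairs. The authors filtered reads with fastp 0.18.0 and assembled them with StringTie 1.3.1 on mm39, as the submitters' processing notes list. They deposited an estimated count and an FPKM value per gene and testis. The aligner and counting tool are not given in the sources used here. Of the estimated counts, 89.2% were whole, and all were rounded. Coordinates are those of GRCm38 (GENCODE), which matched 22232 of 22337 identifiers.

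In R 4.3.3, each pair of genotypes was fitted in edgeR 4.0.16 (filterByExpr, TMM, quasi-likelihood test, Benjamini-Hochberg adjustment over all genes tested, two-sided). The stage slope was fitted over 9 testes with genotype as covariate. The 95% intervals use the moderated degrees of freedom. Single genes were also compared by exact permutation. Replicates are separate testes by label. Whether they came from separate litters is not stated, so p-values measure the spread between these samples. The samples were not treated as paired by replicate number, except in the fits with a replicate block. Deviations of equally numbered testes correlated between -0.81 and 0.86. The testes also differ in stage, so these correlations cannot decide whether replicate numbers mark pairs.

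The 9 genes and the lists were chosen with earlier results of these data known. Named were the 9 genes, list genes with an unadjusted p under 0.05 between genotypes, the 3 with the smallest p per direction and list (plus all list genes called) for stage, and the 5 genes most correlated with the mean z score. Some list genes are counted but not reported here by name. Alternatives were DESeq2 1.42.0, its size factors, limma 3.58.1 on log2(FPKM + 0.1) and log2(FPKM + 1), other filters, other covariates and leaving out each testis. The edgeR fits of homozygous against wild-type testes and of the stage slope were also run on simulated data. The outcome is not reported here, and nothing is concluded from it.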

Additional observations from a re-analysis of the deposited data

How the results depend on the processing

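Between genotypes, 0 of the 9 genes had an adjusted p under 0.05 in any of the 15 alternatives to each comparison. Genes at low levels were not tested in every alternative. Of 354 log2 fold changes of single genes 325 kept their sign. Changes of sign came mostly from leaving out 1 testis. With each testis left out in turn, the log2 fold changes of homozygous against wild-type testes ran from -0.43 to 0.17 for Ifit1, -0.42 to 0.28 for Ifit2, -0.54 to 0.058 for Ifit3, -0.39 to 0.22 for Isg15 and -0.017 to 0.19 for Bst2. For homozygous against heterozygous testes they ran from -0.47 to 0.080, -0.55 to 0.18, -0.65 to 0.072, -0.54 to 0.12 and -0.045 to 0.16, and for heterozygous against wild-type testes from -0.30 to 0.45, -0.30 to 0.53, -0.31 to 0.42, -0.23 to 0.42 and -0.044 to 0.11 for the same genes. With the stage score as covariate, Ifit2 was at 0.10 in homozygous and Ifit3 at -0.019 in heterozygous testes, both against wild-type testes. With the replicate number as a block, 0 of the 9 genes were called in each comparison.

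For the stage slope, 0 of the 9 genes were called in 9 of 18 alternatives. With at least 10 counts in every library, limma on log2(FPKM + 0.1) and limma on log2(FPKM + 1), 1 gene was called (Ifit3). The limma fits did not test Ifit1, Ifit2 and Rsad2, which were below a mean of 0.5 FPKM. With the score alone 2 genes were called (Ifit2 and Ifit3) and with a pachytene score 1 (Ifit2), where the median slope was -0.30. Leaving out each testis gave 0 to 2: 1 without wild-type replicate 3 (Ifit3), 2 without heterozygous replicate 1 (Ifit2 and Ifih1), 1 without its replicate 2 (Ifit3) and 1 without homozygous replicate 1 (Ifit2). The slope of Irf7 was -0.032 and -0.019 with limma (pseudocounts 0.1 and 1) and -0.0026 with the pachytene score. Those of Ifit1 and Ifih1 ran from -0.22 to 0.28 and from -0.28 to 0.0044 with each testis left out. Of the other pathway genes 12 were called, but 3 without wild-type replicate 1, 5 without wild-type replicate 3, 4 without heterozygous replicate 3, 4 without homozygous replicate 3 and 7 under the replicate block. The causes were not tested. Low counts limit Ifit1, Isg15 and Rsad2 most.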
